A study of Mus musculus with 51 samples.

Results

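The 9 genes described here write, copy, recognise or remove methyl groups on cytosine: the methyltransferase family members Dnmt1, Dnmt3a, Dnmt3b and Dnmt3l, the dioxygenases Tet1, Tet2 and Tet3, the maintenance cofactor Uhrf1 and the glycosylase Tdg. They were chosen by this function and are 9 of 22359 coding genes of the GENCODE M1 annotation of mm9. All 9 were found there by symbol, and for each one the peaks overlapping its gene body and 10 kb on either side were collected from the 6 deposited lists.

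The lists come from chromatin immunoprecipitation and sequencing of H3K27ac and H3K4me1 at 3 stages of an in vitro astroglial differentiation. Embryonic stem cells from C57/BL-6 mice were turned into neural progenitors (aNPC) with EGF and FGF2, and these were then moved to a medium with serum, B27 and LIF. Cells were taken as aNPC, after 1 day as early astrocytes (eA) and after 5 days as late astrocytes (lA). No knockdown was applied to these samples. Each stage and mark had 2 replicates, which the authors merged before calling peaks, so that each of the 6 lists is a single measurement with no replicate error and no test between stages. The lists held 79413, 83433 and 92700 H3K27ac peaks and 154238, 185478 and 208333 H3K4me1 peaks in aNPC, eA and lA, and the read depth behind them is unknown. H3K27ac lay at 6, 6 and 7 of 9 astrocyte marker promoters, at 5, 5 and 5 of 6 progenitor markers, at 2, 1 and 1 of 4 neuronal markers and at 0, 0 and 0 of 4 pluripotency markers (Pou5f1, Nanog, Zfp42 and Dppa4).

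DNA methylation at CpG dinucleotides is laid down by the de novo enzymes DNMT3A and DNMT3B, which the catalytically inactive DNMT3L stimulates in germ cells and embryonic cells. When DNA is replicated, UHRF1 binds hemimethylated CpGs and brings in DNMT1, which copies the pattern to the new strand. TET1, TET2 and TET3 oxidise 5-methylcytosine, and TDG excises the further oxidised bases so that repair restores cytosine. In the developing neural lineage, loss of methylation at astrocyte genes such as Gfap is known to accompany the onset of gliogenesis. H3K27ac marks active promoters and enhancers, and H3K4me1 marks enhancers both before and during activity.

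The following 9 stretches of mm9 are shown because the results below turn on them, and they were picked after the values had been seen. Capitals mark matches on either strand to the motifs searched: the NF1 motif TGCCAA, AP-1 TGANTCA, CRE TGACGTCA, RUNX TGTGGT, STAT TTCNNNGAA, E2F TTTNGCGC and the GC box GGGCGG. The first 3 are RefSeq promoter sequences, from 250 bases before to 50 bases after the start, found on mm9 by exact match and printed along the gene's strand. They stand for a promoter with H3K27ac in aNPC and eA and not in lA (Dnmt3b, chr2:153474935-153475234, plus strand), for the gene with H3K27ac at its promoter alone (Tet2, chr3:133207305-133207604, minus strand) and for a start that GENCODE M1 lacks (Tet1, chr10:62350023-62350322, minus strand).

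Dnmt3b promoter: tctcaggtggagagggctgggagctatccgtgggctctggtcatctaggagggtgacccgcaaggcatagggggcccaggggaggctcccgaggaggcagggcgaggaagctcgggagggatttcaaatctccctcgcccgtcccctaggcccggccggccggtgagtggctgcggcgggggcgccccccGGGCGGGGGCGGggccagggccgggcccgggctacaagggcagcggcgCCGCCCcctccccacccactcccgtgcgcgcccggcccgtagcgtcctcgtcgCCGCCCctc

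Tet2 promoter: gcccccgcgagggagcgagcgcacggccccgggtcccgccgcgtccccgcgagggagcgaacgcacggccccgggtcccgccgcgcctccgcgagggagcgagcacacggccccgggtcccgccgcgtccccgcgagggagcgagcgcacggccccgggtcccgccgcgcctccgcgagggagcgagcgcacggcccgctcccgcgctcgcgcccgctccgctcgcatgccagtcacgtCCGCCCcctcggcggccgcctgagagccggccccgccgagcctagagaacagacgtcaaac

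Tet1 promoter: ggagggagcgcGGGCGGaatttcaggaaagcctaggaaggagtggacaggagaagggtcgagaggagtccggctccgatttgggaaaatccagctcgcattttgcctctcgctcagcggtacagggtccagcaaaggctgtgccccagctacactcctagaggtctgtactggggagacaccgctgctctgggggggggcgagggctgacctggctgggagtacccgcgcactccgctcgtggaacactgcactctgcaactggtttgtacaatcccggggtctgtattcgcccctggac

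The other 6 are 200 bases centred on an H3K27ac summit, printed along the plus strand. Dnmt3a +49.5 kb (chr12:3855958-3856157) and Tet1 +33.4 kb (chr10:62328355-62328554) lie at intronic sites acetylated at every stage. Dnmt3b +20.5 kb (chr2:153495599-153495798), Tet3 -1.37 kb (chr6:83392936-83393135) and Uhrf1 +0.432 kb (chr17:56443076-56443275) are from sites that lost H3K27ac while H3K4me1 stayed. Dnmt1 +18.3 kb (chr9:20738946-20739145) is from a site acetylated in lA alone.

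Dnmt3a +49.5 kb: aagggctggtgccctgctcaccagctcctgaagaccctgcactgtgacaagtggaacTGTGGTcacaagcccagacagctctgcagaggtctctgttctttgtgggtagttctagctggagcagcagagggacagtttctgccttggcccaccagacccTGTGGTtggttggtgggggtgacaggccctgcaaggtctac

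Tet1 +33.4 kb: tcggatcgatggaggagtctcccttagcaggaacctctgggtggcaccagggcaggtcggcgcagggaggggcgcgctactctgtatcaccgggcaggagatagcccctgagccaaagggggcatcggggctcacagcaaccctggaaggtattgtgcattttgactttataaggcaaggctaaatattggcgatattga

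Dnmt3b +20.5 kb: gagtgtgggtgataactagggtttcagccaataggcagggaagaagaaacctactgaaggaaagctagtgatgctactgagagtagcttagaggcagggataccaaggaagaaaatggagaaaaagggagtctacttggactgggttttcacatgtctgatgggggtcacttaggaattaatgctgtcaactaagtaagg

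Tet3 -1.37 kb: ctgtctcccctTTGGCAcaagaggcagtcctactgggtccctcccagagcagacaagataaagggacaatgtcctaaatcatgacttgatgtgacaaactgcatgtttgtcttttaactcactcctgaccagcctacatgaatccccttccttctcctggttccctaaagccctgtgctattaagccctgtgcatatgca

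Uhrf1 +0.432 kb: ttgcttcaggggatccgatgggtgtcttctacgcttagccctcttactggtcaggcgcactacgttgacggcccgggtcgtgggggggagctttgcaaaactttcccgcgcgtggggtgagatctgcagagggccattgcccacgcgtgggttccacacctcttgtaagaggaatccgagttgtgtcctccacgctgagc

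Dnmt1 +18.3 kb: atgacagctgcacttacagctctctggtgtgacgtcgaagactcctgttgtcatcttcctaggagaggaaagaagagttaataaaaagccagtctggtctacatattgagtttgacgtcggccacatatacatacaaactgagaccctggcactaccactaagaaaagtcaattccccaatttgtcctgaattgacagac

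The Tet2 promoter held 57 CpGs in 300 bases with a GC content of 81.3%, the Dnmt3b promoter 30 CpGs with 76.0% and the Tet1 promoter 17 CpGs with 61.7%, against medians of 7 CpGs and 52.7% over 32851 RefSeq promoters. Not all member promoters were above these medians, and the RefSeq promoters of Dnmt3l held 6, 4 and 3 CpGs and one of those of Dnmt1 held 2. The GC box, which binds SP factors, was found 4 times in the Dnmt3b promoter and 1 time each in those of Tet2 and Tet1, and 35.7% of all promoters held at least 1. The distal windows were mostly CpG-poor: those of Dnmt3a, Dnmt3b and Tet3 held 0 CpGs, that of Dnmt1 held 4 and that of Tet1 held 9, against a median of 2 over the summits of the aNPC and of the lA list. The Uhrf1 window next to its first start held 14. The RUNX motif occurred 2 times in the Dnmt3a window, as it did at least 1 time in 13.6% of aNPC summit windows. TGCCAA, the part of the NF1 motif searched, occurred 1 time in the Tet3 window, as in 11.1%. The windows of Tet1, Dnmt3b, Uhrf1 and Dnmt1 held none of the 7 motifs. These letter matches are descriptions of the windows, not binding sites.

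Across the 9 loci, the aNPC, eA and lA lists held 55, 55 and 47 H3K27ac peaks and 73, 89 and 82 H3K4me1 peaks. With each list of a mark cut to the length of the shortest, the H3K4me1 counts were 73, 71 and 67. They were 60, 66 and 73 with peaks of −log10 q 5 or more alone, so their direction depended on the setting. Dnmt3a and Tet3 had the most H3K4me1 peaks at each stage. Of the H3K27ac peaks 42, 42 and 37 lay outside the genes' own GENCODE M1 promoters, here the 1 kb before and the 100 bp after each coding start. The median share of a member locus under H3K27ac peaks was 5.13%, 5.12% and 3.97%, against 2.53%, 2.90% and 2.74% for all coding genes. For H3K4me1 the medians were 6.06%, 7.44% and 6.85% against 5.33%, 6.32% and 6.53%. The plot of peak counts gives each gene by stage.

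**Figure D1:**
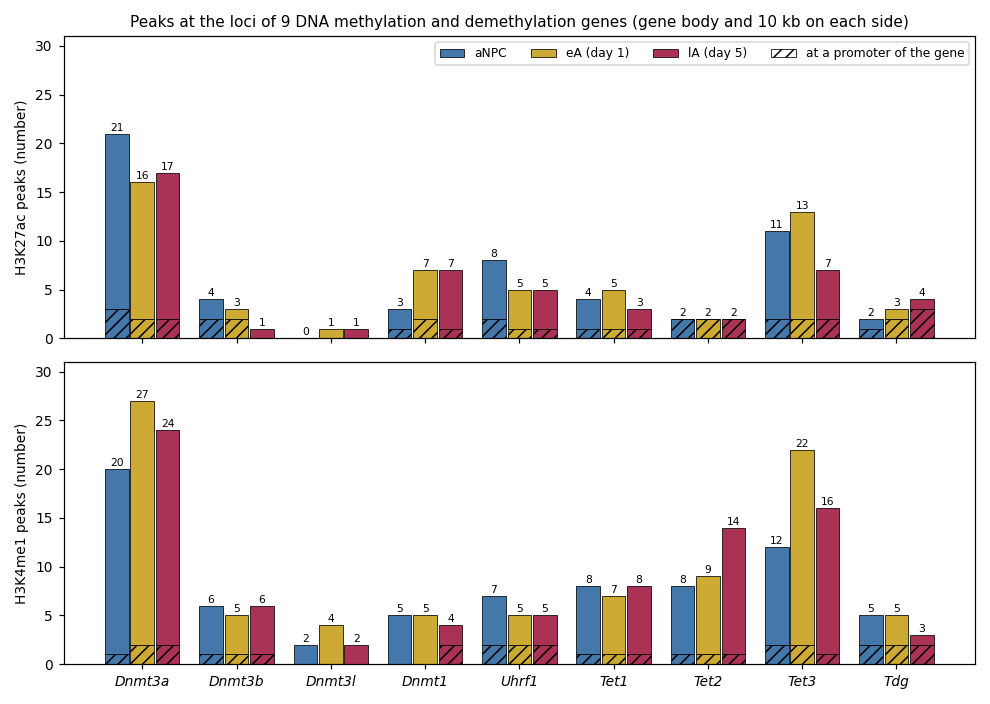
Number of H3K27ac (upper) and H3K4me1 (lower) peaks at each of the 9 loci in aNPC, eA (day 1) and lA (day 5), from 1 merged list per bar, with the part at a GENCODE M1 or RefSeq promoter of the gene hatched. Dnmt3a has the tallest bars (21, 16 and 17 for H3K27ac), Tet2 has H3K27ac at its promoter alone and Dnmt3l has no H3K27ac peak in aNPC.

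At promoters of GENCODE M1, H3K27ac was present at 7, 7 and 5 of the 9 genes in aNPC, eA and lA, where 50.6%, 53.2% and 48.2% of all coding genes had it. Adding RefSeq starts, chosen after Tet1 was seen to lack a peak at its GENCODE M1 starts, gave 8, 8 and 7 against 51.4%, 54.0% and 49.0%. H3K4me1 was present at 6, 6 and 7 against 55.4%, 53.6% and 52.7%, and at 7, 7 and 8 against 56.4%, 54.5% and 53.6% with RefSeq starts. The gene that had neither mark at any of its own promoters was Dnmt3l. The members without H3K27ac in lA by GENCODE M1 were Dnmt1, Dnmt3b, Dnmt3l and Tet1. With RefSeq starts they were Dnmt3b and Dnmt3l, and with a window of 1 kb on either side of any start Dnmt3l alone remained.

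**Figure D2:**
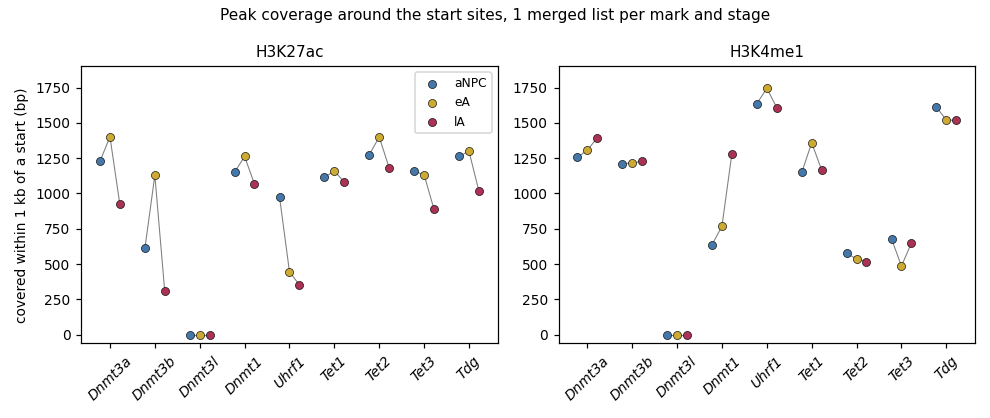
Bases covered by H3K27ac (left) and H3K4me1 (right) peaks within 1 kb of any start of each gene, 1 point per merged list of aNPC, eA or lA, joined by a line within a gene. Dnmt3b drops from 1129 bp in eA to 309 bp in lA and Uhrf1 from 972 bp in aNPC to 446 bp in eA for H3K27ac, while their H3K4me1 points lie between 1212 and 1745 bp.

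The map of the loci shows where these peaks lie. Because the depth of the lists is unknown, peak significance is given below as a standing, the share of the peaks of the same list with a lower −log10 q.

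**Figure D3:**
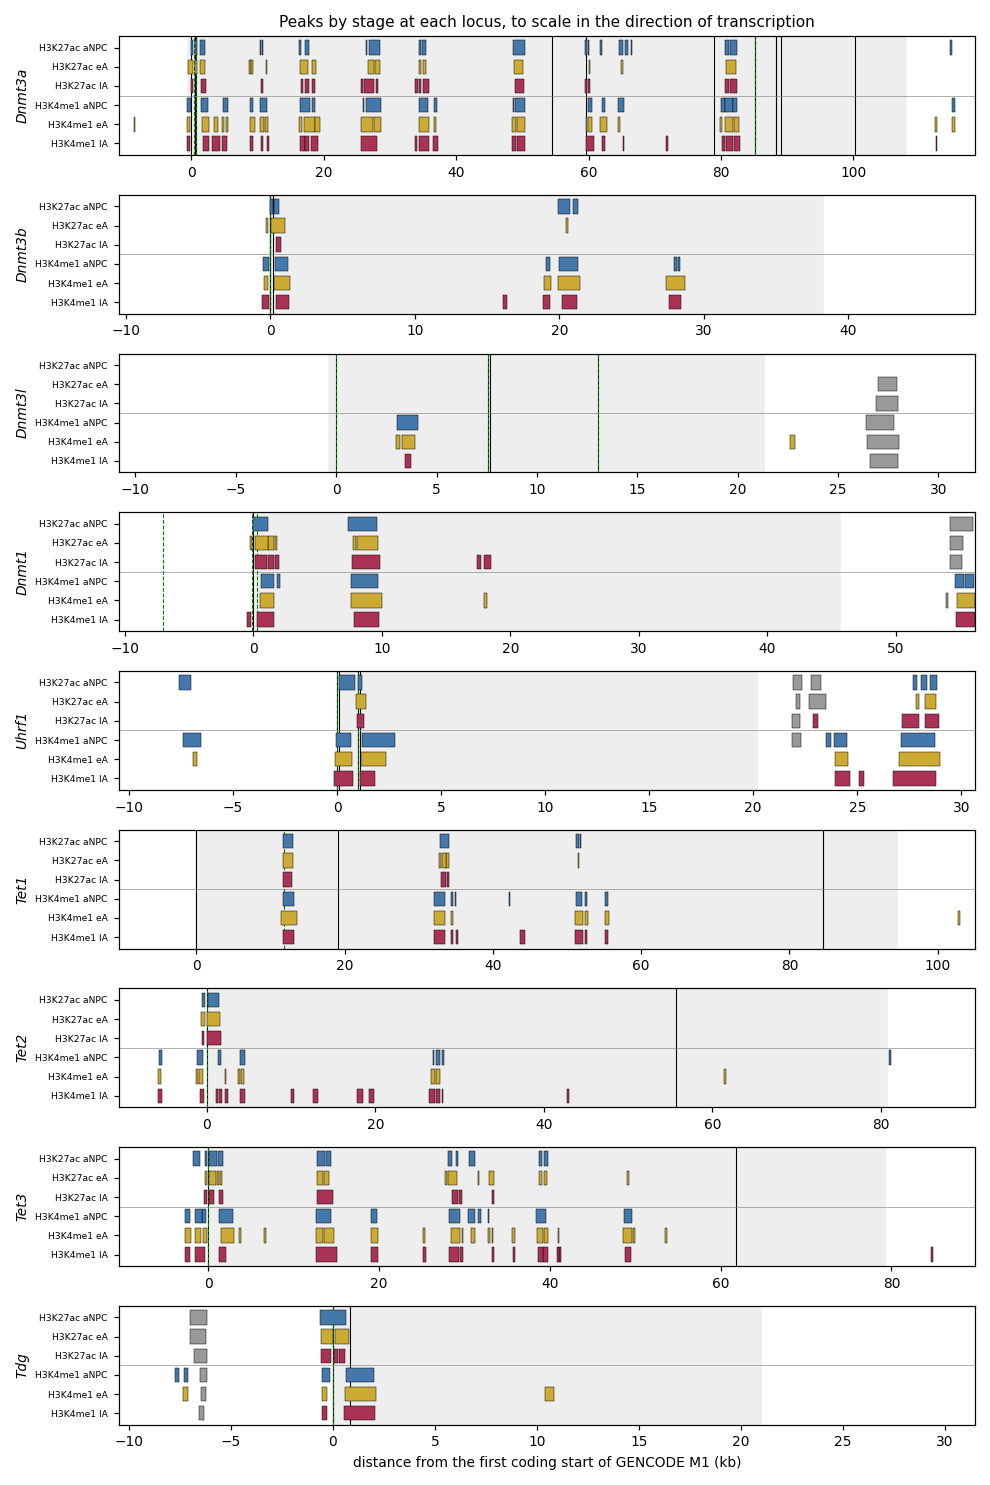
Peaks of H3K27ac (upper 3 rows of each panel) and H3K4me1 (lower 3 rows) in aNPC, eA and lA against distance in kb from the first GENCODE M1 coding start, in the direction of transcription; gene body shaded, GENCODE M1 starts as solid and RefSeq starts as dashed lines, peaks at another gene's promoter in grey. The H3K27ac rows of Dnmt3b and Uhrf1 empty at +20.3 kb and −7.32 kb by lA, and Tet2 has H3K4me1 alone away from its start.

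Among the de novo enzymes, Dnmt3a (chr12:3806007-3914443, plus strand) was the most densely marked, with 21, 16 and 17 H3K27ac peaks and 20, 27 and 24 H3K4me1 peaks in aNPC, eA and lA. Peaks covered 8.55%, 7.65% and 7.79% of its locus for H3K27ac. H3K27ac at the first start, within 691 bp around it, was present throughout, with standings of 81.3%, 90.7% and 72.4%. A second promoter site (chr12:3807116-3807388), over the start at 3807160, had H3K27ac in aNPC and eA, with standings of 66.2% and 81.8%, and none in lA. It was not counted as a loss when peaks under 500 bp apart were joined. The intronic site at +49.5 kb (chr12:3855148-3856886) held the widest H3K27ac peak of the locus in aNPC, 1739 bp with a standing of 96.0%. It was still 1440 bp wide in eA with a standing of 69.3% and 1391 bp in lA with 89.4%, and it carried H3K4me1 at all stages. A second intronic site at +81.6 kb (chr12:3887197-3889027) was acetylated at all stages, and there the highest H3K4me1 peak stood at 99.5%, 97.0% and 98.7%. Its centre lies at −3.63 kb from the RefSeq start at 3891744, which begins the shorter Dnmt3a transcript and had no peak of either mark at its promoter. The sites at +65.7 and +66.4 kb had H3K27ac in aNPC alone and no H3K4me1 at any stage, whereas the site at +18.5 kb had H3K27ac in eA and lA and H3K4me1 already in aNPC. With peaks under 500 bp apart joined, these 3 sites became part of neighbouring sites and were no longer gained or lost on their own. Of the 24 H3K27ac sites at Dnmt3a, 9 were marked at all stages, 5 in aNPC alone, 3 in eA alone and 2 in lA alone.

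Dnmt3b (chr2:153475186-153513466, plus strand) had 4, 3 and 1 H3K27ac peaks, while its H3K4me1 peaks numbered 6, 5 and 6. With peaks of −log10 q 5 or more alone, the H3K27ac counts were 4, 1 and 1 and the H3K4me1 counts 3, 5 and 6. At the start, H3K27ac covered 615, 1129 and 309 bp. The highest peak there stood at 55.9%, 79.8% and 23.5% of its list. In lA that peak, with its summit 566 bp inside the gene, lay just beyond the promoter window. H3K4me1 flanked the same start with 1212, 1215 and 1229 bp, and its peak at about +0.8 kb stood at 99.1%, 99.9% and 99.1%, among the most significant of each list. An intronic site at +20.3 kb (chr2:153495074-153495943) had an H3K27ac peak 870 bp wide in aNPC. The eA peak there was 156 bp wide, and lA had none. H3K4me1 covered it at every stage, with peaks of 1369, 1541 and 1063 bp. Further H3K4me1 sites at +19.1 kb and +28.1 kb were present at all stages and never had H3K27ac.

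Dnmt3l (chr10:77504692-77526367, plus strand), the cofactor without catalytic activity, had no peak of either mark within 1 kb of any of its starts at any stage. Its locus held 0, 1 and 1 H3K27ac peaks, and the single peak in eA and lA lay at the promoter of the neighbour Icosl, a ligand of T cell costimulation. Within the gene an H3K4me1 site at +3.53 kb (chr10:77508023-77509105) was present at all stages, with standings of 74.4%, 95.6% and 62.1%, and without H3K27ac.

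For the maintenance pair, Dnmt1 (chr9:20711650-20757317, minus strand) and Uhrf1 (chr17:56442744-56462909, plus strand), the cover of the locus by H3K27ac was 4866, 4653 and 5789 bp at Dnmt1 and 3284, 2132 and 2447 bp at Uhrf1. Dnmt1 had 3, 7 and 7 H3K27ac peaks, of which 1 at each stage lay at the promoter of Eif3g, and covered 1152, 1262 and 1067 bp around its start. With peaks under 500 bp apart joined, no Dnmt1 site was gained from aNPC to eA. Its highest start peak stood at 97.6%, 86.8% and 87.7%. In lA it reached the promoter by the RefSeq start at 20757067 and not by the GENCODE M1 start, 250 bp further upstream. The lA peak ended at 20757214, only a few bp short of the promoter window of the GENCODE M1 start. H3K4me1 around the Dnmt1 start covered 637, 769 and 1279 bp. The intronic site at +8.61 kb (chr9:20747465-20749957) was the widest acetylated site of the locus with 2493 bp, and its H3K27ac standing was 74.6%, 84.5% and 96.5%, with H3K4me1 at each stage. The neighbouring sites at +18.2 and +17.6 kb were acetylated in lA alone. The first had H3K4me1 in eA and at no other stage, and the second at none.

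Uhrf1 had 8, 5 and 5 H3K27ac peaks, of which 2, 2 and 1 lay at the promoter of Kdm4b, a histone demethylase gene downstream. Its 5′ end has a first group of starts and a second one about 1 kb further in. Immediately downstream of the first, a 768 bp peak of H3K27ac (chr17:56442828-56443595) stood at 91.9% in aNPC and had no counterpart in eA or lA. H3K4me1 lay over the same stretch at all stages, in peaks of 729, 812 and 893 bp with standings of 79.0%, 98.1% and 99.8%. At the second group of starts H3K27ac was present at all stages, in peaks of 204, 446 and 353 bp with standings of 59.1%, 90.3% and 70.0%. A site at −7.32 kb (chr17:56435155-56435702) was acetylated in aNPC alone. H3K4me1 overlapped it in aNPC in a peak of 865 bp, and the nearest eA peak of 182 bp did not overlap it.

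Among the dioxygenases, Tet1 (chr10:62267318-62361866, minus strand) had no peak at its first GENCODE M1 start. The RefSeq start at 62350072 lies 11794 bp downstream of that start, and both marks were found there at all 3 stages. H3K27ac covered 1114, 1160 and 1080 bp there, with standings of 81.3%, 76.6% and 71.8%, and H3K4me1 1150, 1359 and 1167 bp. In the gene a site at +33.5 kb (chr10:62327748-62329081), which is 21.7 kb from the RefSeq start, had both marks at all stages, and its highest H3K27ac peak stood at 86.8%, 80.9% and 85.0%. A pair of sites at +51.4 and +51.8 kb held 2 H3K27ac peaks in aNPC, 1 in eA and none in lA under H3K4me1 peaks of 882, 1092 and 1087 bp.

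Tet2 (chr3:133126643-133207354, minus strand) had 2 H3K27ac peaks at each stage, both at its promoter, and none elsewhere in the locus. The larger one was 1410, 1502 and 1565 bp wide and stood at 94.2%, 93.5% and 95.7%. H3K4me1 peaks numbered 8, 9 and 14, of which 7, 8 and 13 were away from the promoter. Of its 15 H3K4me1 sites 13 never had H3K27ac, and 5 of the 15, all among these 13, were marked in lA alone, at +10.1, +12.9, +18.2, +19.5 and +42.9 kb. Over all coding gene loci, 57.2% of the H3K4me1 sites never had H3K27ac and 21.7% were marked in lA alone, and the lA list is the longest of the 3. H3K4me1 covered 3.04%, 2.99% and 6.30% of the locus.

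Tet3 (chr6:83312367-83391672, minus strand) had 11, 13 and 7 H3K27ac peaks and 12, 22 and 16 H3K4me1 peaks. At −log10 q 5 or more it had 11, 9 and 5 H3K27ac peaks and 12, 16 and 14 H3K4me1 peaks. Its start was acetylated at all stages, with the highest peak standing at 90.7%, 96.0% and 84.3% and a cover of 1157, 1133 and 889 bp. The site at −1.39 kb (chr6:83392691-83393419) had a 729 bp H3K27ac peak standing at 77.9% in aNPC and none later, and H3K4me1 overlapped it at every stage. Sites at +38.9 and +39.5 kb had H3K27ac in aNPC and eA and none in lA, also with H3K4me1 throughout. The intronic site at +13.7 kb, 1921 bp wide, kept both marks, and its H3K4me1 stood at 98.4%, 98.2% and 97.0%. The site at +33.2 kb was the one that had H3K27ac in eA and lA and none in aNPC.

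Tdg (chr10:82092573-82113544, plus strand) had H3K27ac over its start at all stages, covering 1262, 1299 and 1019 bp with standings of 95.3%, 95.7% and 97.5%. The peaks numbered 2, 3 and 4 because 1 promoter peak in aNPC corresponded to 2 in eA and 3 in lA, the remaining peak at each stage being that of the 1190007I07Rik promoter. H3K4me1 flanked the start with 1611, 1520 and 1518 bp. A single H3K4me1 site deeper in the gene, at +10.6 kb, was seen in eA alone with a standing of 1.78%.

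Around the starts, the standing of the highest H3K27ac peak was lower in eA than in aNPC for 4 of the 8 genes with a peak at both stages (Dnmt1, Tet1, Tet2 and Uhrf1), against 35.6% of coding genes. For lA compared with aNPC it was lower in 6 of 8 (Dnmt1, Dnmt3a, Dnmt3b, Tet1, Tet3 and Uhrf1), against 54.7%. This measure was chosen after the values were seen, and with 8 genes these shares describe the members alone.

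To follow single regulatory stretches, overlapping H3K27ac peaks of the 3 stages were merged into sites, 66 at the 9 loci and 88691 at all coding gene loci. At the 9 loci 29 sites (43.9%) were acetylated at all stages, against 30.2% over all loci. In aNPC alone were 11 sites, 16.7% against 18.9%, in eA alone 8 sites, 12.1% against 12.4%, and in lA alone 5 sites, 7.58% against 16.6%. Sites of aNPC and eA numbered 6, 9.09% against 5.31%. Sites of eA and lA numbered 5, 7.58% against 13.6%, and sites of aNPC and lA 2, 3.03% against 2.84%. The share marked throughout was therefore larger, and the share first marked in lA smaller, than over all loci, with no test made. Of the 29 sites marked throughout, 9 were at Dnmt3a, and some lay at promoters of the neighbours Eif3g, Kdm4b and 1190007I07Rik. The share was not recomputed without these sites.

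**Figure D4:**
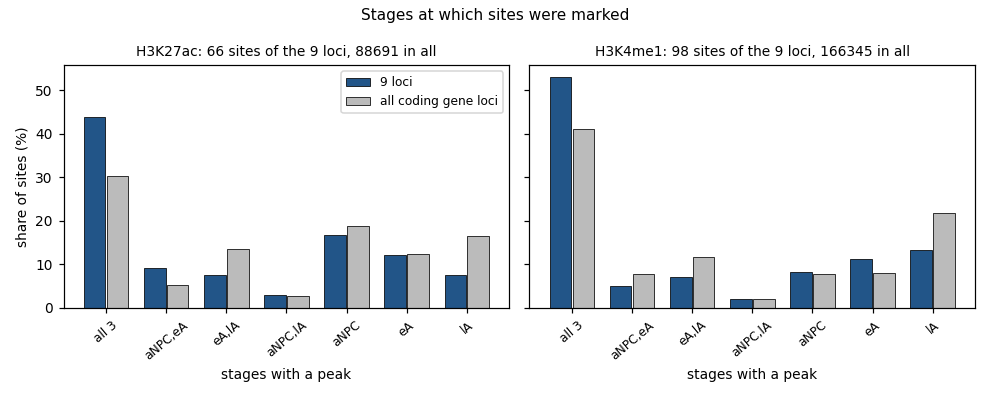
Share of merged H3K27ac (left) and H3K4me1 (right) sites by the stages at which they had a peak, for the 9 loci (blue) and all coding gene loci (grey), in percent of the sites. The bars for all 3 stages are 43.9% against 30.2% and 53.1% against 41.1%, and the lA bars 7.58% against 16.6% and 13.3% against 21.7%.

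From aNPC to eA, 13 of the 48 H3K27ac sites of eA were gained, 27.1% against 42.3% over all loci, and 13 of the 48 sites of aNPC were lost, 27.1% against 37.9%. The largest numbers were at Dnmt3a, with 4 gained and 7 lost, and Tet3, with 4 and 2. From eA to lA, 7 of the 41 sites of lA were gained, 17.1% against 30.8%, and 14 of 48 were lost, 29.2% against 28.8%. Of these 14, Dnmt3a and Tet3 had 5 each and Dnmt3b 2. With peaks of −log10 q 5 or more alone, 7 sites were gained from aNPC to eA, 3 were gained from eA to lA and 5 were lost from eA to lA. Without Dnmt3a, 6 were lost from aNPC to eA, and 3 were gained and 9 lost from eA to lA. Shares of these counts were not computed for either setting, so they cannot be set against those over all loci.

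H3K4me1 was present in aNPC at 11 of the 13 sites gained in eA, 84.6% against 65.0% over all loci, and in eA at 5 of the 7 gained in lA, 71.4% against 67.0%. It was present at the later stage at 10 of the 13 sites lost by eA, 76.9% against 68.3%, and at 10 of the 14 lost by lA, 71.4% against 70.6%. The shares for lA lie near the background. With peaks of −log10 q 5 or more alone, 6 of 7 gains in eA and 1 of 3 in lA had H3K4me1 before, against 67.6% and 66.9% over all loci. With lists of equal length 2 of 5 gains in lA had it, against 64.7%.

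The counts of change depended on how close peaks were treated. When peaks under 500 bp apart were joined, 37 sites remained at the 9 loci. Then 4 were gained and 4 lost from aNPC to eA, 12.5% in both cases against 36.0% and 30.4%, and 1 was gained and 7 lost from eA to lA, 3.85% and 21.9% against 23.6% and 21.8%. The loss by lA of the Dnmt3b site at +20.6 kb, of the Tet1 site at +51.5 kb and of the Tet3 sites at +39.3 and +49.1 kb, the loss by eA of the Tet3 site at −1.39 kb and the Uhrf1 site at −7.32 kb, and the gain in lA of the Dnmt1 site at +17.9 kb were among the changes still counted. The 4 gains in eA were at Tet3 (+33.2 and +49.1 kb), at Dnmt3a (+9.04 kb) and at the Icosl promoter in the Dnmt3l locus. With the same joining, the aNPC peak at the first Uhrf1 start was joined to its neighbour at the second start and was no longer a loss. The eA peaks of the Dnmt3b, Tet1 and Tet3 +49.1 kb sites had −log10 q values of 3.72, 3.72 and 4.91. With peaks of −log10 q 5 or more alone, the Dnmt3b and Tet1 sites were therefore acetylated in aNPC and not in eA or lA, and the Tet3 site at +49.1 kb had no peak.

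H3K4me1 peaks merged into 98 sites. Of these 52 were present at all stages, 53.1% against 41.1% of 166345, and 13 in lA alone, 13.3% against 21.7%. No H3K27ac was found at any stage on 50 of the 98, 51.0% against 57.2%. Tet2 contributed 13 of these 50, Tet3 10, Tet1 8 and Dnmt3a 7.

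The wider set of genes that read methylated DNA, partner with the members or supply their substrates held 45 found by symbol. H3K27ac was present at the promoters of 40, 39 and 36 of them at the successive stages, where 50.6%, 53.2% and 48.2% of all coding genes had it. H3K4me1 was present at 39, 37 and 34, against 55.4%, 53.6% and 52.7%. The readers of methylated DNA had H3K27ac at 11, 11 and 10 of 11, and the base excision and demethylation factors at 11, 10 and 10 of 15. By the rule for genes whose promoter gained or lost H3K27ac, Mbd2, a methyl-CpG binding protein, Setdb1, a histone H3K9 methyltransferase, and Idh2, which yields 2-oxoglutarate, had H3K27ac in aNPC and eA and not in lA. Neil3, a DNA glycosylase, had it in aNPC alone. H3K4me1 was at the promoter of Neil3 at all stages, at that of Idh2 in aNPC and eA, and at those of Mbd2 and Setdb1 at none. A single promoter window was used for this wider set, so a peak just beyond it was not counted. The share of all coding genes whose promoter lost H3K27ac was not computed.

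The coding genes with the most similar cover in the 6 lists were named for 7 of the members by Euclidean distance over the 6 percentages of locus covered, among genes whose locus was from 0.5 to 2 times as long. For Dnmt3a they were Lama5, Sgsm2 and Cyth1, at 1.44 to 1.80 percentage points. Those of Dnmt3b were Tnip1, Lsm11 and Sgsm3, at 1.21 to 1.55, and those of Dnmt3l Uchl1, 6330545A04Rik and Elovl4, at 1.52 to 1.84. Dnmt1 was nearest to 2310021P13Rik, Edem2 and Acadm, at 1.66 to 1.77. Tet1 was near Sema3d, Vps33a and Slc18a1, at 0.768 to 0.785, Tet2 near Immp1l, 4930505A04Rik and Suv420h1, at 0.694 to 0.900, and Tet3 near Stx6, Nck2 and Srl, at 1.25 to 1.58.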

How the data were processed

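ChIP-seq of the marks H3K27ac and H3K4me1 covered aNPC, eA and lA with 2 replicates each. The authors aligned reads uniquely to mm9 with Bowtie, merged replicates with SAMtools 0.1.19 and called peaks with MACS at default settings without input. The deposited lists give each peak's position, its summit and the −log10 q computed by the authors, which was used only within a list. Depth is unknown. RNA-seq and knockdown samples were not analysed here, and 8 of the 51 samples of the series had conflicting labels.

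Mitochondrial peaks (4 or 5 a list) were left out. Starts were taken as 0-based, as the format has it, and coordinates are printed 1-based. Genes came from GENCODE M1 (mm9). RefSeq promoter sequences (table of GRCm38.p6) were placed on mm9 by exact match, with 31900 of 32851 found 1 time and all 16 of the members. A peak belonged to a promoter, site or gene at 1 bp of overlap. The background is the same count over all coding genes or loci. No test was made, as there is 1 merged list per stage and mark. All 9 members are named, with the 3 genes most like each (for Uhrf1 and Tdg these are not reported here) and the genes of the wider list whose promoter gained or lost H3K27ac. The members and lists were chosen with earlier results of these data known. The code was tested on simulated peaks. Python 3.11.15, numpy 2.4.6 and matplotlib 3.10.9 were used.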

Additional observations from a re-analysis of the deposited data

How the results depend on the processing

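Of 100 values recomputed under the alternatives, 81 stayed within 1.5 times the reported value. The flank (none, or 20 kb), RefSeq starts and leaving out peaks or sites at another gene's promoter moved none of theirs by more. With a promoter of 1 kb on either side of any start, 8 members had H3K27ac in lA. Keeping peaks of −log10 q 5 or more, sites gained from aNPC to eA numbered 7, of which 6 had H3K4me1 before, sites gained from eA to lA 3, of which 1 had it before, and sites lost from eA to lA 5. With lists cut to equal length, 2 sites gained in lA had H3K4me1 in eA. With peaks under 500 bp apart joined, 4 were gained and 4 lost from aNPC to eA, 4 of the gained had H3K4me1 before, 1 was gained from eA to lA and 1 had it before, 7 were lost, and 31 H3K4me1 sites had no H3K27ac. Without Dnmt3a, 6 sites were lost from aNPC to eA and 7 of the gained had H3K4me1 before, 3 were gained from eA to lA, 2 with H3K4me1 before, and 9 were lost. Shares of gained and lost sites were set against all loci only for the reported setting and for the joined peaks. RefSeq starts, neighbouring promoters and the omission of Dnmt3a were chosen after seeing the data. Which weak peaks a deeper list would add was not tested. No paired analysis was possible because each list was called on merged replicates, and for the same reason no replicate could be left out.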
